A study of Homo sapiens with 4 samples.

Results

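The transcription factors that drive epithelial cells towards a mesenchymal state, and the regulators that hold them back, were followed in MCF10A cells with and without HSF1 overexpression. The 10 genes, found in the count table by Ensembl identifier among 63856 genes, were listed by name as known regulators of one process. Of these, 6 are inducers of epithelial-to-mesenchymal transition (EMT): SNAI1, SNAI2, ZEB1, ZEB2, TWIST1 and TWIST2. The other 4 are OVOL1, OVOL2, GRHL2 and ESRP1, which maintain the epithelial state. RNA-seq had been performed on total RNA, depleted of ribosomal RNA, from MCF10A, a non-tumorigenic human mammary epithelial line grown in DMEM/F12 medium with horse serum, insulin, hydrocortisone, EGF and cholera toxin. There were 2 libraries of unmodified wild type (WT) cells and 2 of cells stably transduced with a lentivirus carrying HSF1 cDNA in the pLVX vector and selected with puromycin (HSF1-pLVX). Libraries of cells with the empty vector were not analysed here, so transduction and selection cannot be told apart from HSF1 itself in this comparison. Library totals ran from 18688109 to 24184285 counts.

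EMT is the switch by which cells lose apical-basal polarity and junctions and become motile. SNAIL, ZEB and TWIST proteins drive it, partly by binding E-box sequences and repressing genes such as CDH1 (E-cadherin). OVOL proteins repress ZEB1, GRHL2 and ZEB1 repress each other, and ESRP1 is a splicing factor that keeps transcripts in their epithelial forms and is itself repressed by ZEB1. The miR-200 family and miR-205 target ZEB1 and ZEB2 transcripts, and ZEB proteins repress miR-200 genes in turn.

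The sequences through which this last loop works are shown first, because ZEB1 and ZEB2 are the members it acts on. RefSeq (GRCh38.p14) gives the mature miRNAs below, with the seed (bases 2 to 8) in capitals. They fall into 3 seed groups, the first holding miR-200b, miR-200c and miR-429, the second miR-200a and miR-141, and the third miR-205.
hsa-miR-200b-3p: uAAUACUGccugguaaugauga
hsa-miR-200c-3p: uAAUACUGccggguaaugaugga
hsa-miR-429: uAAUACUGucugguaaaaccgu
hsa-miR-200a-3p: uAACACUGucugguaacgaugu
hsa-miR-141-3p: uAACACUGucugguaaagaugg
hsa-miR-205-5p: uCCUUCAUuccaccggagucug

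In the 3′ UTR of ZEB1 (2540 bases, GENCODE release 44) the complement of the first seed, CAGTATT, occurred 6 times, that of the second, CAGTGTT, 3 times, and that of the miR-205 seed, ATGAAGG, once. Among 3006 3′ UTRs of like length, ZEB1 itself included, 0.0333% held as many CAGTATT matches, that is ZEB1 alone. As many CAGTGTT matches were held by 0.566%, and at least 1 ATGAAGG match by 19.0%. The 3′ UTR of ZEB2 (5370 bases) held 5 CAGTATT and 4 CAGTGTT matches and no ATGAAGG. Of 1507 UTRs of like length, ZEB2 itself included, 0.0664% (ZEB2 alone) reached the first count and 1.128% the second. SNAI2 had 1 CAGTATT match, GRHL2 1 CAGTGTT match and ESRP1 1 of each, while the 3′ UTRs of SNAI1, TWIST1, TWIST2, OVOL1 and OVOL2 held none of the 3. The first match of each kind in ZEB1 and ZEB2 is printed below on hg38, in the direction of transcription and with the matching bases in capitals. Each lies within bases counted for its gene. A match is a description of the letters and not a measured site.
ZEB1, chr10:31527618-31527640, plus strand: attgttttatcttatCAGTATTa
ZEB1, chr10:31528031-31528053, plus strand: caaaatcatcagaatCAGTGTTt
ZEB1, chr10:31528067-31528089, plus strand: aatatgtggtaacatATGAAGGa
ZEB2, chr2:144389052-144389074, minus strand: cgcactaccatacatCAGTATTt
ZEB2, chr2:144389236-144389258, minus strand: tgcaaaaattttgtaCAGTGTTa

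The targeted gene was examined first. HSF1 had 200.4 and 189.2 CPM (counts scaled to a common library size, after TMM normalization) in the 2 WT libraries and 982.4 and 998.6 in the HSF1-pLVX libraries, and its log2 fold change was 2.35 (standard error 0.0999, adjusted p = 1.14e-10) by the quasi-likelihood test of edgeR. HSF1 levels thus followed the labels. Fold changes below come from the same fit and are given as HSF1-pLVX relative to WT on the log2 scale, with p-values adjusted over all 15830 tested genes by the Benjamini-Hochberg method and called at 0.05. With 2 libraries against 2, an exact permutation test of a single value cannot go below p = 0.333, so calls rest on the spread shared across genes. The study's methods call the libraries of a group biological replicates, while the labels do not say whether they came from separate cultures, and p-values measure the spread between these libraries, part of which may be technical.

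Members of both groups of genes changed. Of the 6 EMT factors, 4 rose (SNAI2, ZEB2, TWIST1 and TWIST2), and SNAI1 and ZEB1 were not called. TWIST1 and TWIST2 had nearly equal counts in every library and their split is uncertain, so they may not be separate rises. ZEB2 passed the filter on low counts only through the HSF1-pLVX group, so it was tested only because it was high there. Of the 4 epithelial regulators, 2 fell (OVOL1 and GRHL2), and OVOL2 and ESRP1 were not called. These counts stand against a background in which 32.7% of tested genes were called higher and 33.2% lower, so that 65.9% were called in either direction. With a fold change beyond 2 required as well, ZEB2, TWIST1 and TWIST2 remained among the higher genes (background 14.9%) and OVOL1 among the lower ones (background 14.0%). The median log2 fold change was 1.21 over the 6 factors, ZEB2 included, and -0.55 over the 4 opponents, against 0.02 over all tested genes. In bulk RNA, a change in the number of cells that express a gene cannot be told apart from a change in RNA per cell.

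**Figure D1:**
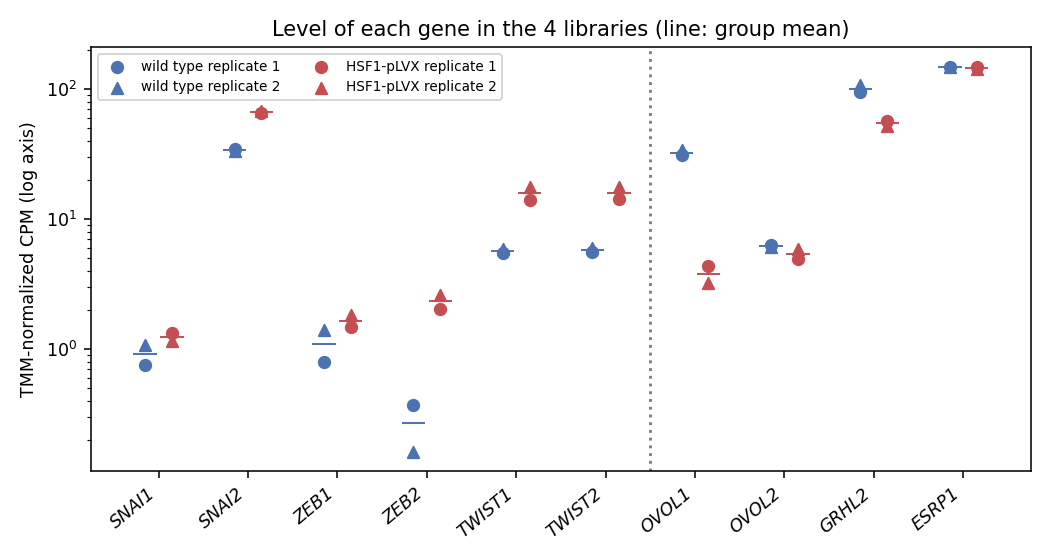
Level of each of the 10 genes in each library, as TMM-normalized CPM on a log axis, with points for libraries and lines for group means. The EMT factors are left of the dotted line and the epithelial regulators right of it. ZEB2 and OVOL1 show the widest separation of the groups, and ESRP1 lies between 143.5 and 149.1 CPM in every library.

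SNAI2 (Slug), a zinc finger repressor of E-cadherin and the most abundant of the 6 factors, lies on chromosome 8 of hg38 from 48917768 to 48921740. It had 652 and 619 counts in the WT libraries and 1631 and 1351 in the HSF1-pLVX libraries. Its level rose from 34.02 ± 1.003 to 66.5 ± 2.15 CPM (mean ± SD, n = 2 libraries per group here and below), and the log2 fold change was 0.97 (standard error 0.0857, adjusted p = 1.96e-07, edgeR). SNAI2 was thus just short of a 2-fold change. SNAI1 (Snail), its close relative (chromosome 20, 49982999 to 49988886), was scarce, with 14 and 20 counts in WT and 33 and 23 in HSF1-pLVX cells. Its level was 1.24 ± 0.111 CPM in HSF1-pLVX cells against 0.911 ± 0.234 CPM in WT. The log2 fold change of SNAI1 was 0.45 with a 95% interval from -0.27 to 1.16 (adjusted p = 0.257, edgeR), an interval that includes a change as large as that of SNAI2.

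ZEB1 and ZEB2 encode zinc finger homeobox repressors that act on the same kind of E-box sites. ZEB2 (chromosome 2, 144364364 to 144524583) had 7 and 3 counts in the WT libraries and 51 and 52 in the HSF1-pLVX libraries. It rose from 0.267 ± 0.1495 to 2.32 ± 0.414 CPM (log2 fold change 3.08, standard error 0.411, adjusted p = 1.27e-05, edgeR). This was the largest rise among the 10 genes. Per kilobase of counted length (24970 bases, against 8650 for ZEB1) ZEB2 remained the lowest of the 6 factors. In CPM, ZEB2 stood above ZEB1 (1.64) and SNAI1 (1.24) in HSF1-pLVX cells. ZEB2 passed the filter on low counts only through the HSF1-pLVX group, with 10 counts in WT in all. The ratio of summed counts, scaled to library size, was 8.55 with an exact 95% interval from 4.47 to 18.4, which covers counting error only. Its size depended on the WT libraries, the log2 fold change being 3.804 without WT replicate 1 and 2.59 without WT replicate 2.

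ZEB1 (chromosome 10, 31318495 to 31529814) had 15 and 26 counts in WT and 37 and 36 in HSF1-pLVX cells. Its mean level was 1.10 ± 0.424 CPM in WT and 1.64 ± 0.239 in HSF1-pLVX cells. The log2 fold change of 0.57 had a 95% interval from -0.15 to 1.28 (adjusted p = 0.147, edgeR). The call depended on 1 library, since without WT replicate 2 the value was 1.01 (adjusted p = 0.0465). The 95% interval of ZEB2 ran from 2.20 to 3.96. ZEB2 was tested only because it was high in HSF1-pLVX cells, so its interval is no fair measure against that of ZEB1. The difference between the genes was not tested.

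TWIST1 and TWIST2 encode closely related basic helix-loop-helix factors. TWIST1 (chromosome 7, 19020991 to 19117672) had 102 and 109 counts in WT and 350 and 352 in HSF1-pLVX cells. TWIST2 (chromosome 2, 238848032 to 238910543) had 104 and 112 counts in WT and 357 and 351 in HSF1-pLVX cells. The counts of the pair were nearly equal in every library, TWIST1 standing at 98.1% and 97.3% of TWIST2 in WT replicates 1 and 2 and at 98.0% and 100.3% in HSF1-pLVX replicates 1 and 2. TWIST1 rose from 5.65 ± 0.306 to 15.8 ± 2.67 CPM (log2 fold change 1.48, standard error 0.154, adjusted p = 1.03e-06, edgeR). TWIST2 rose from 5.78 ± 0.345 to 15.9 ± 2.44 CPM (log2 fold change 1.46, standard error 0.1501, adjusted p = 9.30e-07, edgeR).

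How reads that match both TWIST genes were counted is not stated, so the split between them is uncertain. The longest identical run between their annotated transcripts was 23 bases, shorter than the reads described in the study's methods. Summed and tested as 1 feature, TWIST1 and TWIST2 had a log2 fold change of 1.47 (adjusted p = 1.45e-07, edgeR), so a rise of the pair did not hang on the split.

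Among the epithelial regulators, OVOL1 had the largest change. This zinc finger repressor of ZEB1 and of other mesenchymal genes lies on chromosome 11 from 65787022 to 65797219. It had 588 and 627 counts in WT and 110 and 64 in HSF1-pLVX cells. OVOL1 fell from 32.5 ± 1.71 to 3.802 ± 0.820 CPM, 8.56-fold lower (log2 fold change -3.08, standard error 0.142, adjusted p = 2.45e-10, edgeR). Of its counted bases, 27.1% are shared with a gene on the opposite strand (ENSG00000255404), which had 0 counts in all 4 libraries. OVOL2 (chromosome 20, 17956979 to 18059188), the paralog with a similar role, had 119 and 113 counts in WT and 124 and 116 in HSF1-pLVX cells. At 6.21 ± 0.182 and 5.39 ± 0.636 CPM, its log2 fold change was -0.21 with a 95% interval from -0.59 to 0.17 (adjusted p = 0.308, edgeR). The intervals of the OVOL paralogs lay far apart, that of OVOL1 running from -3.38 to -2.77.

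GRHL2 (chromosome 8, 101492432 to 101669726), a grainyhead-like activator of CDH1 and of claudin genes, had 1778 and 1983 counts in WT and 1436 and 1031 in HSF1-pLVX cells. It fell from 100.7 ± 8.49 to 54.5 ± 3.75 CPM, 1.85-fold (log2 fold change -0.88, standard error 0.0917, adjusted p = 1.01e-06, edgeR). ESRP1 (chromosome 8, 94641074 to 94707466) had 2779 and 2755 counts in WT and 3744 and 2850 in HSF1-pLVX cells, or 148.2 ± 0.165 and 146.3 ± 4.01 CPM. Its log2 fold change was -0.02 with a 95% interval from -0.20 to 0.16 (adjusted p = 0.862, edgeR). The interval bounds any change of ESRP1 more narrowly than that of SNAI1 or ZEB1. The sign of so small a value turned when libraries were scaled by size only (0.042) or HSF1-pLVX replicate 2 was left out (0.019).

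**Figure D2:**
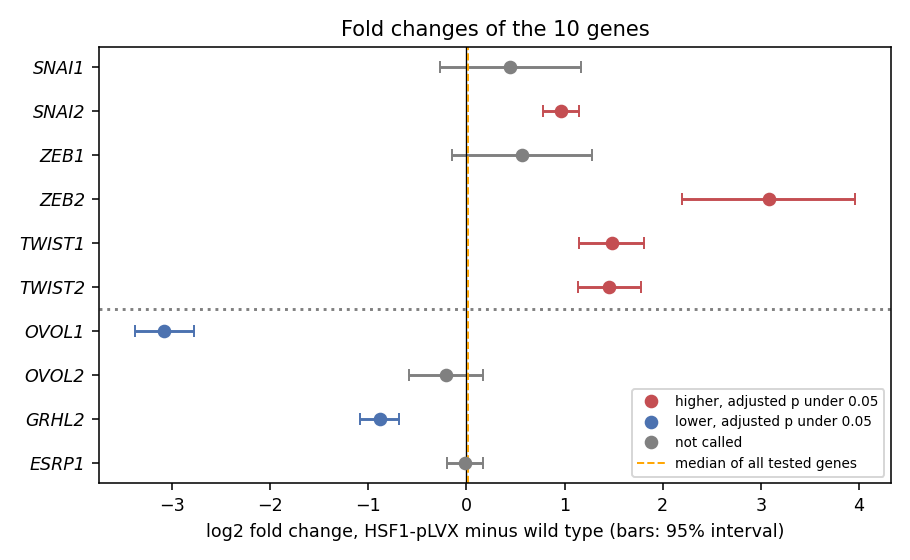
Log2 fold change of each of the 10 genes, HSF1-pLVX relative to WT, with 95% intervals from edgeR. Red and blue points were called higher and lower, grey points were not called, and the dashed line is the median of all tested genes. The intervals of SNAI1, ZEB1, OVOL2 and ESRP1 include 0. Those of ZEB2 (2.20 to 3.96) and OVOL1 (-3.38 to -2.77) lie farthest from it, ZEB2 having been tested only because it was high in HSF1-pLVX cells.

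Levels of different genes were compared per kilobase of counted length. In WT cells the order, in CPM per kilobase, was ESRP1 (30.4), GRHL2 (16.6), SNAI2 (15.4), OVOL1 (8.45), TWIST2 (3.08), OVOL2 (2.86), TWIST1 (2.78), SNAI1 (0.540), ZEB1 (0.127) and ZEB2 (0.0107). GRHL2 and SNAI2 could not be ordered, since GRHL2 had 15.6 and 17.6 and SNAI2 15.8 and 15.1 in the 2 libraries, nor could TWIST1 and OVOL2. In HSF1-pLVX cells SNAI2 and ESRP1 stood level at 30.2 and 30.0, with GRHL2 at 9.001, TWIST2 at 8.49 and TWIST1 at 7.79 behind them. The values of these 3 overlapped between libraries. OVOL1, next after SNAI2 in WT, was at 0.988 in HSF1-pLVX cells, close to SNAI1 at 0.733, while ZEB1 (0.190) and ZEB2 (0.0931) stayed lowest. The place of ZEB2 rests on a counted length of 24970 bases, against 8650 for ZEB1.

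The balance between a factor and its opponents can be read within a library, free of any scaling between libraries. The log2 ratio of SNAI2 to OVOL1 counts per kilobase was 0.95 and 0.79 in the WT libraries and 4.69 and 5.20 in the HSF1-pLVX libraries, a difference of means of 4.08. SNAI2 to GRHL2 went from a mean of -0.10 to 1.75, SNAI2 to OVOL2 from 2.43 to 3.61, and SNAI2 to ESRP1 from -0.98 to 0.01. For ZEB1 the ratio to OVOL1 was -6.46 and -5.76 in WT and -2.74 and -1.998 in HSF1-pLVX cells. ZEB1 remained below each of the 4 opponents in every library. In all 8 pairings the mean was higher in HSF1-pLVX than in WT libraries, with differences of means from 0.65 (ZEB1 to ESRP1) to 4.08. The pairings share their genes and are not independent of the fold changes above.

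**Figure D3:**
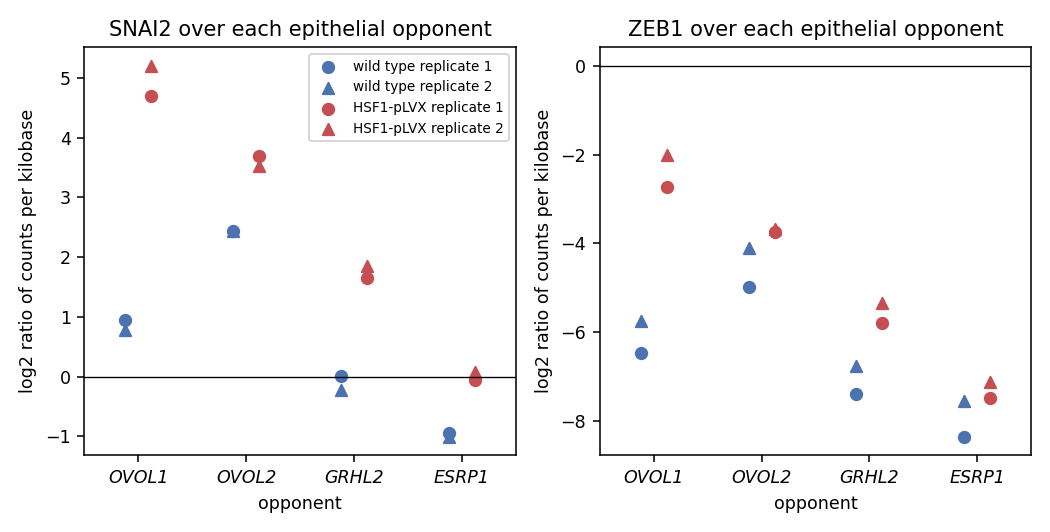
Log2 ratio of SNAI2 (left) and ZEB1 (right) to each of the 4 epithelial regulators within each library, from counts per kilobase, with 1 point per library. The OVOL1 pairings shift most (differences of means of 4.08 and 3.74), and ZEB1 stays below 0, that is below its opponent, in every library.

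The counts for the gene lists that follow are read against the same background, 32.7% of tested genes called higher and 33.2% called lower. Of 15 other transcription factors known to induce EMT 11 were tested, of which 3 were called higher and 5 lower (median log2 fold change -0.04), shares not far from that background. SOX4 fell by 2.34 and SOX9 by 1.31 on the log2 scale, both being SOX factors of progenitor cells. GSC and TBXT had 0 counts in all 4 libraries. Of 16 other factors of the epithelial state 13 were tested, of which 8 were lower and 2 higher (median -0.81), against 33.2% and 32.7% of all tested genes. The higher count was 1 without either HSF1-pLVX library. The remaining grainyhead-like genes GRHL1 and GRHL3 fell with GRHL2, with log2 fold changes of -1.71 and -1.30, and so did GATA3, the luminal regulator, with -2.28. ESRP2, the paralog of ESRP1, fell from 80.5 ± 0.136 to 44.1 ± 1.42 CPM (log2 fold change -0.87, adjusted p = 4.13e-07, edgeR). The difference between ESRP1 and ESRP2 was not tested. TP63, the basal regulator, went the other way, from 9.69 ± 0.990 to 108 ± 2.86 CPM (log2 fold change 3.48). GRHL3 and ESRP2 were named after their values were seen, as paralogs of the genes described.

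SNAIL and ZEB proteins repress through partners, and SNAIL proteins turn over fast. Of 17 tested co-repressor genes 10 rose and 3 fell (median log2 fold change 0.36), against 32.7% and 33.2% of all tested genes. EZH2, the methyltransferase of Polycomb, rose by 1.41 and SUV39H1, a histone H3 lysine methyltransferase, by 1.18, while WTIP, a LIM protein of the Ajuba family, fell by 1.29. Of 15 genes for enzymes that modify or degrade SNAIL proteins 6 rose and 5 fell (median -0.12), shares close to the 32.7% and 33.2% of all tested genes. LOXL2, a lysyl oxidase-like enzyme reported to stabilize SNAI1, rose from 28.3 ± 3.09 to 190 ± 2.24 CPM (log2 fold change 2.75), and the ubiquitin ligase genes MDM2 and FBXW7 by 1.11 and 1.05. Protein levels were not measured in these libraries.

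The genes on which these regulators act were read by class, and the difference between classes was not tested. Of 18 epithelial genes 17 were tested, and 15 of them fell, none of the 17 having a log2 fold change above 0 (highest -0.08, median -1.36). Of all tested genes 33.2% were called lower. The log2 fold change was -2.45 for CRB3, a polarity protein, -2.003 for MAL2 of apical transport, -1.89 for LLGL2 of the Scribble polarity module, and -1.43 for CDH1. Of 11 tested mesenchymal genes 3 rose and 6 fell (median -0.98), against 32.7% and 33.2% of all tested genes, with VIM (vimentin) rising from 12.3 ± 2.28 to 48.5 ± 2.77 CPM (log2 fold change 1.98) and FN1 (fibronectin) and CDH2 (N-cadherin) falling, with log2 fold changes of -2.37 and -4.78. Of 12 genes whose transcripts ESRP proteins splice, 2 rose and 5 fell at the level of the gene (median -0.15), MAGI1 by 1.72 and EPB41L5 by 1.66, while TCF7L2 rose by 0.57. These counts, against 32.7% and 33.2% of all tested genes, became 1 and 3 without HSF1-pLVX replicate 2. Splicing itself cannot be read from counts per gene.

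**Figure D4:**
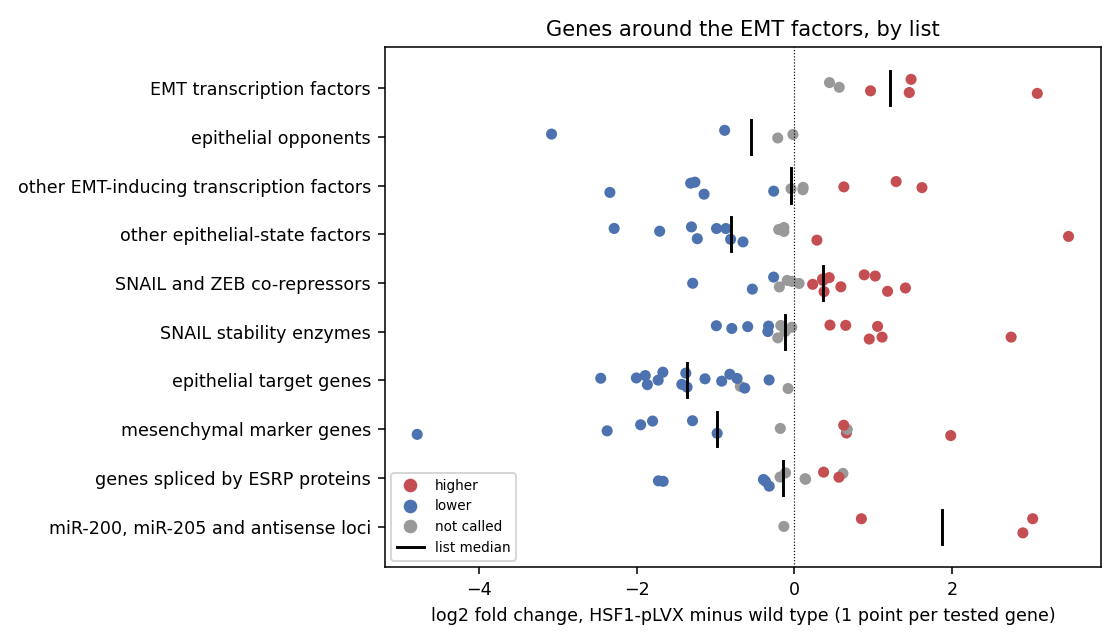
Log2 fold change of each tested gene, HSF1-pLVX relative to WT, by list, with red for higher, blue for lower and grey for not called, and black bars for list medians. The epithelial target genes all lie below 0 (median -1.36), whereas the mesenchymal markers spread from -4.78 to 1.98 and the co-repressors have a median of 0.36.

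The miRNA loci of the ZEB loop were measured only through their precursor and host transcripts, since such libraries do not capture mature miRNAs. The 5 miR-200 family hairpins held at most 7 counts in any library. MIR200CHG, the host of miR-200c and miR-141, had 105 and 100 counts in WT and 102 and 120 in HSF1-pLVX cells (log2 fold change -0.13, adjusted p = 0.594, edgeR). MIR205HG, the host of miR-205, rose from 47.2 ± 1.17 to 351 ± 51.5 CPM (log2 fold change 2.90, adjusted p = 5.45e-11, edgeR), and the MIR205 hairpin from 10 and 10 counts to 93 and 102. The miR-205 hairpin shares 35.5% of its counted bases with MIR205HG, so the pair is not independent. As given above, the miR-205 seed has 1 match in the 3′ UTR of ZEB1 and none in that of ZEB2. ZEB1-AS1, antisense to ZEB1, had 13 and 17 counts in WT and 44 and 22 in HSF1-pLVX cells (log2 fold change 0.85, adjusted p = 0.0478, edgeR). It shares 4.23% of the ZEB1 counted bases, and 2 rather than 3 loci of this list were called higher by DESeq2, by limma-voom, with a replicate block and in each setting that left out a library. ZEB2-AS1 had 0 counts in all libraries.

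The nearest tested genes on the chromosome were compared with each member. Of all tested genes 33.2% were called lower and 32.7% higher, so called neighbours are common. SNAI1 (KRT18P4, -0.88), ZEB1 (ARHGAP12, -0.22), TWIST2 (ASB1, -0.32) and OVOL2 (RRBP1, -0.91) each had a flanking neighbour called lower. Their flanking neighbours on the other side were not called. OVOL1 lay among genes that also fell, AP5B1 at 6.22 kb (log2 fold change -1.25) and CFL1 at 25.8 kb (-1.10), both by less than OVOL1. The overlapping OVOL1-AS1 fell too (-2.92, standard error 0.440), and its difference from OVOL1 was not tested. ZEB2 stood between genes that fell, GTDC1 at 31.8 kb (-0.45) and ACVR2A at 3320 kb (-1.23). TWIST1 rose beside HDAC9, which lies 18.6 kb away and fell by 1.80 on the log2 scale. NCALD, 16.8 kb from GRHL2, fell by 3.38 (standard error 0.596). For SNAI2 one neighbour rose (CLXN at 182 kb, 2.57, standard error 0.563) and the other fell (PXDNL at 2398 kb, -1.62, standard error 0.645). Neighbours of ESRP1 (LINC02894 and DPY19L4) were not called, with log2 fold changes of 0.08 for both. SNX5, which overlaps OVOL2 and shares 2.71% of its counted bases, rose by 1.01 while OVOL2 was not called.

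**Figure D5:**
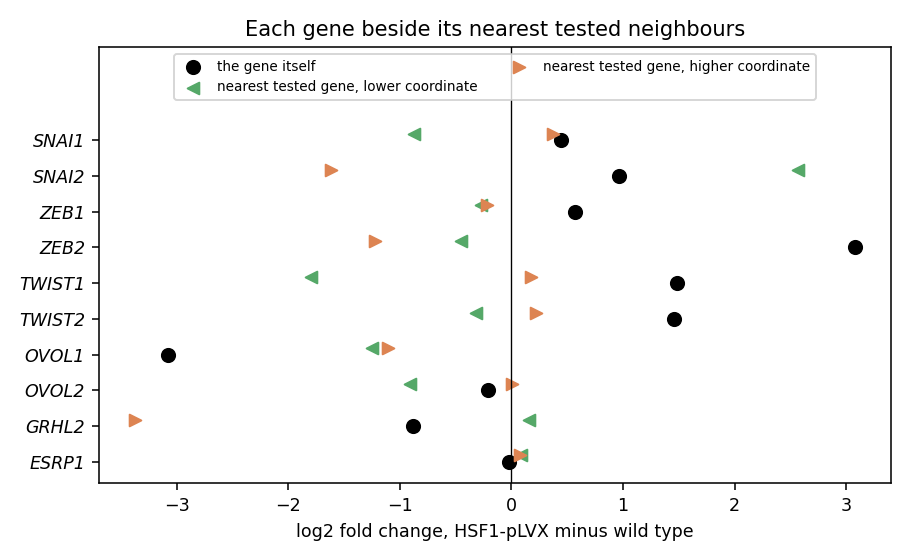
Log2 fold change of each of the 10 genes (black) beside its nearest tested neighbours on the chromosome (triangles), HSF1-pLVX relative to WT. OVOL1 has a neighbour that fell on each side (-1.25 and -1.10), whereas the genes beside ZEB2 (-0.45 and -1.23) lie on the other side of 0 from it. Of all tested genes 33.2% were called lower.

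Of the 10 genes, ZEB1, ZEB2 and TWIST2 had a promoter window of 300 bases in the RefSeq table (GRCh38.p14), and the windows of SNAI1, SNAI2, TWIST1, OVOL1, OVOL2, GRHL2 and ESRP1 were not used here. Those of ZEB2 and TWIST2, which rose, are printed below 5′ to 3′, from 250 bases before to 50 after the transcription start, because HSF1 and the TWIST proteins are DNA-binding factors whose motifs can be searched for there. Capitals mark the E-box CANNTG.
ZEB2, chr2:144520070-144520369, minus strand: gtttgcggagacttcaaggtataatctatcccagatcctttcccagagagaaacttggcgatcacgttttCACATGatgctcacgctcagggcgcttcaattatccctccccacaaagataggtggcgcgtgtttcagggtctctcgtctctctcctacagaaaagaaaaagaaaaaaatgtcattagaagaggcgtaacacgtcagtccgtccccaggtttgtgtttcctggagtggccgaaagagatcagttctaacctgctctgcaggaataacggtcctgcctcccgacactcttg
TWIST2, chr2:238847835-238848134, plus strand: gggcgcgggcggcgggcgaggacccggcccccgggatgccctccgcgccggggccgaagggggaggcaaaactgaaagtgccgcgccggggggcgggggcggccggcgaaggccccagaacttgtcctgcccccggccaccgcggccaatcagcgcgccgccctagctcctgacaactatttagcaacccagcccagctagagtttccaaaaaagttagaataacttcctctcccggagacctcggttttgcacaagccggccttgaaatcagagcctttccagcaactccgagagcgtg

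An inverted pair of heat shock element units was searched for as GAANNTTC and as TTCNNGAA, each of which reads the same on both strands. The ZEB2 window, the TWIST2 window and the 7 windows of ZEB1 held neither, and 6.77% and 7.74% of 35116 promoter windows held each. The ZEB2 window held 1 CANNTG and the TWIST2 window none, against 68.7% of all windows with at least 1. The E-box form bound by SNAIL and ZEB proteins, CACCTG or its complement CAGGTG, was absent from the ZEB2 and TWIST2 windows, present in 2 of the 7 ZEB1 windows and in 20.6% of all windows. These letters say nothing about binding in the cells.

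Markers of other cell types and lineages were read beside these results. None of 7 blood and endothelial markers passed the filter, with summed levels from 0.969 to 1.33 CPM in WT and from 0.836 to 1.51 in HSF1-pLVX libraries. Of 9 fibroblast markers 6 had at most 10 counts in every library, COL1A2, COL3A1, LUM and THY1 among them. Of the rest, DCN (decorin) rose, FAP fell and COL1A1 was not called. DCN, with 1 and 3 counts in WT and 94 and 87 in HSF1-pLVX cells, passed the filter only through the HSF1-pLVX group. The summed level went from between 199.3 and 227.2 CPM in WT to between 48.9 and 59.9 in HSF1-pLVX libraries, and FAP alone made up 191.4 and 216.3 CPM of it in WT and 44.9 and 35.0 in HSF1-pLVX libraries. Of 8 tested luminal markers 6 fell and 1 rose, against 33.2% and 32.7% of all tested genes, KRT8 with a log2 fold change of -3.24, KRT18 with -1.73 and ESR1, which rose, with 1.65. Their summed level was 5713 to 5789 CPM in WT and 1121 to 1371 in HSF1-pLVX libraries. Of 7 basal markers 4 rose (TP63, as above, KRT5 with a log2 fold change of 1.12, EGFR with 0.83 and ITGA6 with 0.44) and 2 fell (KRT14 with -3.55 and KRT17 with -2.56). KRT17 fell from a mean of 7194 to 1220 CPM and KRT5 rose from 2113 to 4592. The sum of the 7 was 12529 to 12961 CPM in WT and 8862 to 9659 in HSF1-pLVX libraries. The part of these lineage genes in the changes of the EMT factors was not tested.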

How the data were processed

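RNA-seq libraries of MCF10A cells, 2 WT and 2 HSF1-pLVX, were grouped by their labels. Per gene, the authors deposited raw counts of reads, obtained with HISAT2 2.0.5, SAMtools 1.13 and featureCounts 1.6.5 on hg38 per the submitters' processing notes. They also deposited normalized values on a log2-like scale for 22321 genes (DESeq2 1.32.0 is named). Strand and multi-mapping settings are not given in the sources used here.

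The counts were tested in R 4.3.3 with edgeR 4.0.16 (TMM, filterByExpr with a minimum count of 10, quasi-likelihood test, no replicate block), which left 15830 of 63856 genes. CPM are TMM-normalized. The scripts were tested on simulated data. Library totals of 18688109 to 24184285 counts limit precision for genes with few counts. Alternatives were other size factors, no filter, DESeq2 1.42.0, limma 3.58.1 (voom), the block, each library left out, a 2-fold rule and summed TWIST genes. The deposited log2-like values were used too, with the study's ratio rule (above 2 or below 0.5 in both replicates). Ratios for that rule came from differences of these values, which need not equal log2 ratios of counts.

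Members and gene lists were chosen with earlier results of these data known. Named genes were HSF1, the 10 members, CDH1, VIM, the 3 called genes per list with the largest change and at least 50 counts in each library of the higher group, the nearest tested neighbours, and the 3 genes closest in pattern. One gene that this rule names is not reported here. COL1A1, the fibroblast genes, KRT5, EGFR, ITGA6, ESR1 and loci at 0 are named after their values were seen, to complete counts. Sequences came from GENCODE release 44 and RefSeq tables.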

Additional observations from a re-analysis of the deposited data

How the results depend on the processing

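Of 190 values recomputed under the alternatives for the 10 genes, HSF1 and the counts of calls among all genes and among the 10, 183 kept their direction and side of the threshold (values with no test moved by less than the spread between replicates, counts by at most 1.5 times). The exceptions were these. ZEB1 passed the threshold only without WT replicate 2, at 1.01 (range 0.24 to 1.01 with each library left out). ESRP1, which was not called, changed sign with scaling by library size only (0.042) and without HSF1-pLVX replicate 2 (0.019, range -0.042 to 0.019). As a difference of the deposited normalized values, ZEB2 was 1.76 and TWIST2 1.31. The cause was not tested. A single epithelial regulator, OVOL1, was called lower under a 2-fold rule (1 gene) and under the study's ratio rule (1 gene). GRHL2 changed by less than 2-fold in the fit. Under the ratio rule GRHL2 was below 0.5 in replicate 2 (0.487) but not in replicate 1 (0.588). Under the ratio rule 3 EMT factors were higher (ZEB2, TWIST1 and TWIST2). With each library left out, between 3783 and 4923 genes were called higher and between 3846 and 4962 lower. A lone library in a group was assumed to vary like the other group. Of 260 values for CDH1, VIM and the other lists, 9 changed and 0 reversed.

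The labels number replicates in both groups but do not say whether the numbers pair the libraries. Same-numbered deviations from the group means correlated at -0.015. This shows no strong shared effect of the number but cannot show how the libraries were prepared. With a replicate block, 5138 genes were called higher and 5171 lower, ZEB2 had a log2 fold change of 3.08 and ZEB1 of 0.60 (adjusted p = 0.13), and no call of the 10 genes changed. Depth limits SNAI1, ZEB1 and ZEB2, which held 3 to 52 counts per library.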

Other observations

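The genes whose profile over the 4 libraries was closest to that of ZEB2, by Euclidean distance of mean-centred log2(CPM + 0.5), were STAC2 (distance 0.0604), PYCR1 (0.0866) and CPVL (0.108), with 45 genes within 0.25. PYCR1 encodes an enzyme of proline synthesis. For OVOL1 the closest were APCDD1 (0.0509), a Wnt inhibitor, SYT1 (0.0704), a synaptotagmin, and RALGPS1 (0.0863), a Ral exchange factor, with 52 genes within 0.25. The measure covers 4 libraries in 2 groups, and the added 0.5 shrinks the differences of genes with few counts.

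Of the 10 genes, SNAI2, GRHL2 and ESRP1 lie on chromosome 8, as does HSF1 itself, and these 3 took different courses (higher, lower and not called).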
